A study of Mus musculus with 115 samples.

Results

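The enzymes of fatty acid oxidation that are known targets of the nuclear receptor PPAR-alpha were followed through liver and inguinal fat of FCG mice, in which gonad type and sex chromosomes are inherited apart. The genes were Acot3, Acot1, Acot2, Ehhadh, Cpt1a, Cpt2, Pdk4 and Vnn1. They were taken by the gene symbols in the probe tables of the arrays, where Acot3 stands under its older symbol Pte2a, and make up 8 of the 18120 symbols there. All 8 genes had a probe tested in liver, and 6 had one tested in adipose tissue, because Cpt1a and Vnn1 were detected on 0 of 55 adipose arrays.

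In these mice, on a C57BL/6J background, the Y chromosome (Y-) lacks Sry, the gene that starts testis development, and some animals carry Sry as a transgene on an autosome. XX and XY- mice without Sry develop ovaries, and XXSry and XY-Sry mice with the transgene develop testes, so the transgene and the testes cannot be told apart. Every animal was gonadectomised at 75 days of age and at once received a Silastic capsule that was blank (B) or held testosterone (T, 5 mM) or estradiol (E, 50 µg). Tissues were taken 3 weeks later, and RNA was measured on 1-colour Illumina expression arrays. Liver had 5 arrays in each of the 12 groups of genotype and capsule. Adipose tissue had 3 arrays of XX B, 4 each of XXSry E, XX T and XY-Sry B, and 5 in each of the other 8 groups. The labels do not say whether the arrays of a group came from separate animals, nor which liver and adipose arrays share one, so a p-value measures the spread between arrays. The gonad effect is Sry minus no Sry, averaged over genotypes and capsules. In all animals it refers to the gonad type present until 75 days, since none had gonads afterwards.

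PPAR-alpha binds fatty acids and, paired with RXR, switches on the genes that take up, activate and oxidise them, most strongly in liver and brown fat. Cpt1a commits long-chain acyl groups to mitochondria by joining them to carnitine, and Cpt2 turns them back to acyl-CoA inside. Ehhadh carries out the middle steps of peroxisomal oxidation. The acyl-CoA thioesterases release free fatty acid from CoA in the cytosol (Acot1), in mitochondria (Acot2) and in peroxisomes (Acot3). Pdk4 inactivates the pyruvate dehydrogenase complex and so spares glucose, and Vnn1 is a pantetheinase that releases pantothenic acid, the precursor of CoA.

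The thioesterases lie side by side on chromosome 12, in the order Acot2, Acot1, Gm40474, Acot4, Acot3. Acot4 is a peroxisomal relative that stood on the arrays as Pte2b. The promoters of 3 of these genes are shown because Acot3 and Acot4 had like patterns in liver and Acot1 had another. Whether the probes of Acot3 and Acot4 also read each other was not tested. Each is the 250 bases before the RefSeq start site, 5′ to 3′ on the plus strand of GRCm38.p6. Acot3 is at chr12:84051894-84052143, Acot4 at chr12:84038129-84038378 and Acot1 at chr12:84009252-84009501. Capitals mark AGGTCA, the core element bound by PPAR, in either orientation.
Acot3: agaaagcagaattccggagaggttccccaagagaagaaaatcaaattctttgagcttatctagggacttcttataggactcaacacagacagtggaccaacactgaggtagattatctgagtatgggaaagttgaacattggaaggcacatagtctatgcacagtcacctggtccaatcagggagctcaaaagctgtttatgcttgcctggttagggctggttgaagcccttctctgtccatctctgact
Acot4: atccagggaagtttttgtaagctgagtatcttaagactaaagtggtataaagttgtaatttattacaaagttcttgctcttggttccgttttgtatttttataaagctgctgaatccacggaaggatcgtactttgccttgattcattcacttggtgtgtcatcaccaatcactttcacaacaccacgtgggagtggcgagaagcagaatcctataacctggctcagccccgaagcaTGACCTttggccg
Acot1: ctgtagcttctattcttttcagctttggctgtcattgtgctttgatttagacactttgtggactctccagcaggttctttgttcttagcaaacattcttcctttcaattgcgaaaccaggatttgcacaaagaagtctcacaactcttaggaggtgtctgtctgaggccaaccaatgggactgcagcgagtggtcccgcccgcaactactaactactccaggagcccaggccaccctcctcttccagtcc
The element began 13 bases before the Acot4 start and was not in the Acot3 or Acot1 window. On both strands it was found in 1 of the 7 members with a RefSeq promoter (Cpt1a, 94 bases before the start) and in 4607 of 32851 promoters of this length (14%). The motif TTCNNNGAA, the STAT element, was in 1 of the 7 (Cpt2, 200 bases before the start) against 2306 promoters (7.02%). A match is only a match of letters.

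Array values are log2 of the background-corrected, quantile-normalised signal. A probe was detected on an array where its detection p was under 0.01, and a difference was called where its Benjamini-Hochberg adjusted p over all tested probes (limma) was under 0.05. Between 31.8% and 41% of the probes were detected on a liver array and between 40.3% and 49% on an adipose array. All 7 hepatocyte markers were detected on every liver array, and 4 of the 5 adipocyte markers on every adipose array. The 60 liver arrays lay on 8 slides and the 55 adipose arrays on 8, with 1 slide holding both tissues, and in liver 3 slides held both blank and testosterone and 2 held both blank and estradiol (2 and 2 in adipose tissue). In adipose tissue the mean of the 7 skeletal muscle markers ran from 6.15 to 14.13 and that of the 6 lymph node markers from 5.00 to 10.52. Several arrays stood apart or had labels in doubt. In liver, XY-Sry T replicate 5 had the Y-linked Eif2s3y at 4.53 (the other XY-Sry T arrays 6.84 to 8.14), and XY- E replicate 5 had the androgen-dependent Hsd3b5 at 12.26, in the range of the testosterone arrays (11.15 to 12.95). XXSry E replicate 5, at 11.19, was also just inside that range, with the other XXSry E arrays at 8.47 to 10.25, and was left out only singly. In adipose tissue, the label fields of XX E replicate 1 disagreed on the capsule. The estrogen-induced Greb1 was 9.22 on it, within the 7.17 to 9.30 of the arrays labelled estradiol and above the 5.96 of the highest testosterone array. Its group was taken from the label that gives estradiol. XXSry B replicates 3 and 4 carried Eif2s3y at 6.41 and 6.51 (the other XXSry B arrays 4.66 to 4.86), and XY-Sry T replicate 1 carried hepatocyte transcripts.

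**Figure D1:**
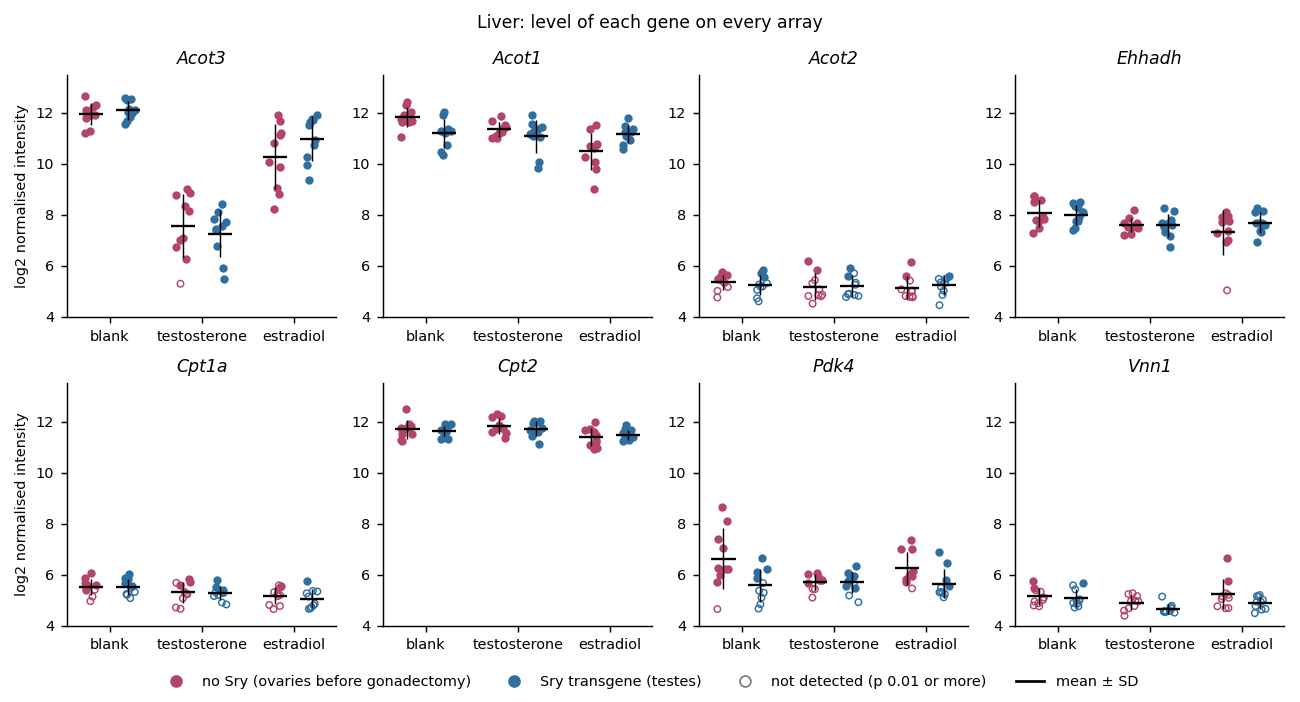
Level of each of the 8 genes in liver (log2 normalised signal, vertical axes) by capsule (blank B, testosterone T, estradiol E) and by absence or presence of Sry. Points are arrays (open where the detection p was 0.01 or more) and bars are means ± SD of 10 arrays. Acot3 fell from 11.21 or more on every blank array to 9.03 or less on every testosterone array.

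In liver, testosterone lowered the peroxisomal thioesterase Acot3 by far more than any other gene of the 8. Under blank capsules Acot3 had a lowest, median and highest level of 11.21, 12.03 and 12.66 (mean 12.02 ± 0.40, SD, n = 20). Under testosterone these were 5.30, 7.50 and 9.03 (7.41 ± 1.09, n = 20), and under estradiol 8.23, 10.89 and 11.91 (10.63 ± 1.12, n = 20). The testosterone and blank arrays did not overlap, while the estradiol arrays reached from the top of the testosterone range into the blank range. Testosterone minus blank was −4.61 ± 0.28 (SE), 24.5-fold lower, with an adjusted p of 1.47e-19 and a 95% interval of −5.18 to −4.04. The drop was −4.32 in XX, −4.47 in XY-, −5.33 in XXSry and −4.34 in XY-Sry mice (SE 0.57 each). It lay between −5.40 and −3.16 within each of the 3 slides that held both capsules. In bulk tissue, fewer cells of a type and less RNA per cell cannot be told apart. The mean of the 7 hepatocyte markers was 11.90 ± 0.10 under blank and 11.91 ± 0.16 under testosterone (SD, n = 20 each).

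The 12 liver groups fell into an order of capsules for Acot3. The 4 testosterone groups had means of 6.81 to 7.72, the 4 estradiol groups 10.16 to 11.21 and the 4 blank groups 11.81 to 12.14. Neighbours in this order within a capsule differed by less than the larger of their SDs. Under estradiol the lowest group (XX, 10.16 ± 0.93, SD, n = 5) and the highest lay further apart than either SD, with no test of that pair. The highest estradiol group (XY-Sry, 11.21 ± 0.80, SD, n = 5) and the lowest blank group (XX, 11.81 ± 0.31, n = 5) also differed by less than the larger SD. Estradiol lowered Acot3 by a smaller amount, −1.40 ± 0.28 (SE, adjusted p = 0.000734, 2.63-fold). The estradiol difference was −1.67 in mice without Sry and −1.12 in mice with it (SE 0.40 each). With slide as a block it was −1.03 and no longer called (adjusted p = 0.0625). Within the 2 slides that held both capsules it was −1.48 and −1.07, and with both liver arrays that stood apart left out −1.26 (adjusted p = 0.00141). The gonad difference was 0.18 ± 0.23 (adjusted p = 0.878).

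Acot1, the cytosolic thioesterase, was lower under estradiol in liver, and its testosterone difference did not pass the test. Its lowest, median and highest levels were 10.35, 11.63 and 12.43 under blank (11.51 ± 0.57, SD, n = 20). They were 9.83, 11.27 and 11.90 under testosterone (11.22 ± 0.51, n = 20) and 9.01, 10.85 and 11.78 under estradiol (10.83 ± 0.67, n = 20). All 3 ranges overlapped. Estradiol minus blank was −0.67 ± 0.15 (SE), 1.59-fold lower with an adjusted p of 0.00317, and −0.96 and −0.59 within the 2 slides. For testosterone the difference was −0.29 ± 0.15 (adjusted p = 0.19).

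The estradiol difference of liver Acot1 was larger in the mice without Sry than in those with it, but the test of that split missed the threshold. In those mice Acot1 was 11.82 ± 0.39 under blank and 10.49 ± 0.74 under estradiol (SD, n = 10 each), a fitted difference of −1.33 ± 0.22 (SE). In mice with Sry it was 11.19 ± 0.56 and 11.18 ± 0.36 (n = 10 each), a difference of −0.01 ± 0.22. The XX B arrays read 12.31, 12.43, 11.78, 12.02 and 11.62, and the XX E arrays 10.09, 10.76, 10.28, 9.80 and 10.69, with no overlap. The XY- B arrays read 11.04, 11.93, 11.69, 11.65 and 11.75, and the XY- E arrays 10.75, 9.01, 10.61, 11.51 and 11.38, which overlap. The XXSry B arrays read 10.35, 11.30, 11.24, 10.75 and 10.45, and the XXSry E arrays 11.25, 11.26, 11.11, 10.93 and 10.58, which overlap. The XY-Sry B arrays ran from 11.20 to 12.05 and the XY-Sry E arrays from 10.74 to 11.78, which overlap. The mean went from 10.82 to 11.03 in XXSry and from 11.57 to 11.33 in XY-Sry mice, so the −0.01 averages opposite directions. XXSry B had the lowest blank mean, with the others at 11.57 to 12.03. The difference between the differences was 1.32 ± 0.31 with an adjusted p of 0.0673. It passed with slide as a block (adjusted p = 0.0459) and without both liver arrays that stood apart (1.41, adjusted p = 0.0151). Leaving out XY-Sry T replicate 3, XXSry T replicate 4, XY- B replicate 1, XY- E replicate 4 or XY- E replicate 5 also brought it past the threshold, and over all 60 such repeats it ran from 1.11 to 1.43. The second Acot1 probe gave 1.47 ± 0.42 (adjusted p = 0.181).

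Acot2, the mitochondrial thioesterase, was close to background in liver. Its most often detected probe was detected on 14 of 60 arrays, with means of 5.31 ± 0.35 under blank, 5.19 ± 0.46 under testosterone and 5.19 ± 0.40 under estradiol (SD, n = 20 each). Its testosterone difference was −0.11 ± 0.13 (SE, adjusted p = 0.614). A second probe, detected on 6 arrays, gave −0.37 ± 0.10 (adjusted p = 0.00664), so the probes disagreed on the call. The third was detected on 0. The sequences of the probes were not used here, and the thioesterase genes are close copies, so any of their probes may also read a neighbour.

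Ehhadh, the peroxisomal enzyme, was lower under estradiol by a small amount. Its lowest, median and highest levels were 7.28, 7.91 and 8.75 under blank (8.03 ± 0.46, SD, n = 20), 6.75, 7.61 and 8.28 under testosterone (7.60 ± 0.37, n = 20) and 5.04, 7.70 and 8.27 under estradiol (7.50 ± 0.70, n = 20). The 5.04 was XX E replicate 1, and all other arrays under the capsules overlapped widely. Estradiol minus blank was −0.53 ± 0.16 (SE, adjusted p = 0.0361) and −1.03 and −0.22 within the 2 slides. The call was lost on leaving out any of 13 of the 60 arrays, of which XX E replicate 1 left −0.41 (adjusted p = 0.064). The others were XX B replicates 3 and 5, XY- B replicates 4 and 5, XY- E replicates 1 and 2, XXSry B replicate 5, XXSry E replicate 1, XY-Sry B replicates 2 and 4 and XY-Sry E replicates 1 and 5. Testosterone minus blank was −0.43 ± 0.16 and just missed (adjusted p = 0.0551). With slide as a block it was −0.61 and passed (adjusted p = 0.000746). It also passed without XXSry B replicate 1, XY-Sry T replicate 4 or 5, XY-Sry B replicate 5, XY- B replicate 1, XX B replicate 2, XX T replicate 5 or XX E replicate 1, within −0.48 to −0.37 over all leave-outs.

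The carnitine enzymes moved little in liver. Cpt1a, the gatekeeper of mitochondrial entry, was detected on 19 of 60 arrays, 11 of them blank, 6 testosterone and 2 estradiol. It had a lowest, median and highest level of 4.96, 5.52 and 6.06 under blank (5.52 ± 0.31, SD, n = 20) and 4.65, 5.18 and 5.76 under estradiol (5.12 ± 0.35, n = 20). The estradiol difference was −0.40 ± 0.11 (SE, adjusted p = 0.0138), at levels where the signal was near background. Within the 2 slides it was −0.78 and −0.63, and testosterone minus blank was −0.23 (adjusted p = 0.139). Cpt2, its partner inside, was detected on all 60 arrays at 11.67 ± 0.29 under blank, 11.77 ± 0.30 under testosterone and 11.44 ± 0.29 under estradiol (SD, n = 20 each). Testosterone minus blank was 0.10 ± 0.10 (adjusted p = 0.519, 95% interval −0.10 to 0.30), and estradiol minus blank −0.23 ± 0.10 (adjusted p = 0.163).

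Pdk4, the pyruvate dehydrogenase kinase, was the 1 gene of the 8 with a gonad call in liver. It had a lowest, median and highest level of 4.65, 5.99 and 8.66 in mice without Sry (6.19 ± 0.86, SD, n = 30) and 4.67, 5.56 and 6.89 in mice with Sry (5.64 ± 0.54, n = 30). It was detected on 25 of 30 and 15 of 30 arrays, so part of the levels in both lay near background. The groups overlapped. The XX B arrays read 8.66, 7.03, 7.41, 8.11 and 6.26, and held the 3 highest levels of all liver arrays, followed by an XX E array at 7.34. The difference was −0.55 ± 0.14 (SE, adjusted p = 0.0125), and was below 0 within all 8 slides (−1.21 to −0.12). It was −1.05 under blank, −0.02 under testosterone and −0.60 under estradiol (SE 0.25 each). The differences between these were not called: for testosterone the change in the gonad difference was 1.03 ± 0.35 (adjusted p = 0.57). XX B had a mean of 7.49 ± 0.93 (SD, n = 5), against 5.76 in XY- B, 5.82 in XXSry B and 5.34 in XY-Sry B. Testosterone minus blank, over all genotypes, was −0.41 ± 0.18 (adjusted p = 0.099), and it passed without XXSry B replicate 1 (−0.48, adjusted p = 0.0428), XY- B replicate 1 (−0.47, adjusted p = 0.0457) or XX B replicate 5 (−0.48, adjusted p = 0.0352). The sex chromosome difference, XX minus XY, was 0.40 ± 0.14 (adjusted p = 0.857).

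Vnn1, the pantetheinase, was detected on 5 of 60 liver arrays, 3 blank, 0 testosterone and 2 estradiol. Its levels were 5.12 ± 0.33 under blank, 4.78 ± 0.27 under testosterone and 5.06 ± 0.48 under estradiol (SD, n = 20 each). The testosterone difference was −0.34 ± 0.11 (SE, adjusted p = 0.0252). The probe was not well above background on any testosterone array, so no fold is given. It reached the 5 detected arrays needed for a test only through blank and estradiol arrays. With slide as a block the difference was −0.21 and not called (adjusted p = 0.215), as it was without XXSry B replicate 2 (−0.29, adjusted p = 0.0518).

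In counts, 2 of the 8 genes were called for testosterone in liver, both lower (Acot3 and Vnn1). Of all tested probes 19.1% were called, a share close to that of the members. Vnn1 was detected on 0 testosterone arrays and entered the test only through blank and estradiol arrays, with all its means near background. Estradiol changed 4 of 8, all downward (Acot3, Acot1, Ehhadh and Cpt1a), where 6.82% were called. The gonad changed 1 of 8 (Pdk4, lower with Sry), where 3.40% were called. The median difference of the 8 genes was −0.31 for testosterone and −0.32 for estradiol, beside 0.00 and −0.02 over all tested probes. The mean of the 5 macrophage markers, of which 4 were detected on some liver array, was 6.46 ± 0.39 under blank (SD, 5.98 to 7.53), 6.20 ± 0.24 under testosterone (5.72 to 6.56) and 6.89 ± 0.43 under estradiol (6.36 to 7.64; n = 20 each). It was 6.73 ± 0.49 without Sry (5.76 to 7.64) and 6.30 ± 0.29 with Sry (5.72 to 6.99; n = 30 each). The part of these cells in the liver results was not tested. The testosterone and estradiol differences share the blank arrays. Without background correction, or with array weights, 4 of 8 were called for testosterone, and with median centring 1 of 8. The testosterone count was also changed by leaving out XXSry B replicate 1, XXSry B replicate 2 or XY- B replicate 1, within 1 to 4 over all leave-outs.

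**Figure D2:**
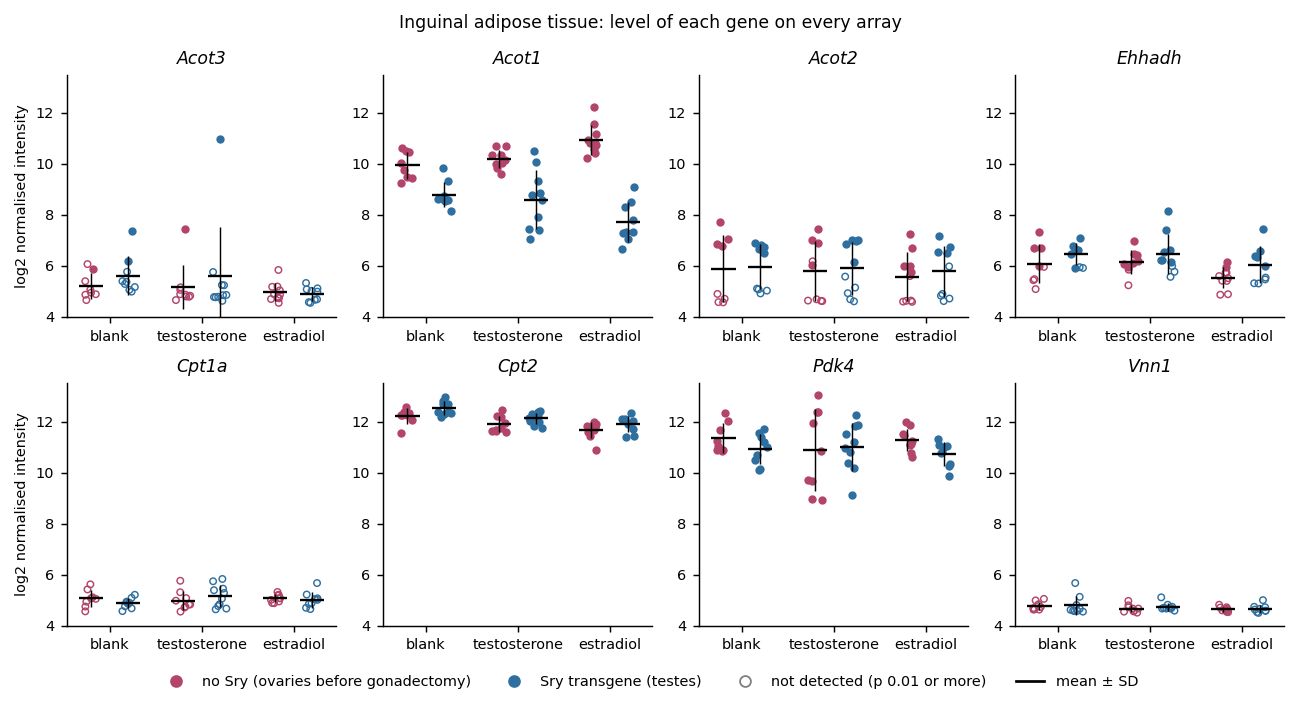
Level of each of the 8 genes in inguinal adipose tissue (log2 normalised signal, vertical axes) by capsule (blank B, testosterone T, estradiol E) and by absence or presence of Sry. Points are arrays (open where the detection p was 0.01 or more) and bars are means ± SD. Under estradiol, Acot1 ran from 10.21 to 12.22 without Sry and from 6.67 to 9.10 with Sry.

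Inguinal fat gave another picture. Acot1 was split by gonad type and Cpt2 by capsule, while Acot3 was mostly not detected and Pdk4 was detected throughout. Acot1 had a lowest, median and highest level of 9.24, 10.42 and 12.22 in mice without Sry (10.40 ± 0.66, SD, n = 27), and of 6.67, 8.56 and 10.49 in mice with Sry (8.37 ± 0.96, n = 28). The ranges overlapped between 9.24 and 10.49. The gonad difference was −2.01 ± 0.20 (SE), 4.01-fold lower with Sry, with an adjusted p of 2.78e-11 and a 95% interval of −2.40 to −1.61. It was below 0 within all 8 slides (−3.27 to −0.60). The second probe, detected on 34 of 55 arrays, gave −1.80 ± 0.15 (adjusted p = 1e-13). Leaving out the 4 adipose arrays that stood apart gave −2.09 (adjusted p = 6.91e-11).

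The order of the 12 adipose groups for Acot1 had the 6 groups with Sry at means of 7.59 to 8.85 and the 6 without at 9.78 to 11.07. Neighbours in the order with Sry differed by less than the larger of their SDs, and so did those without Sry except XY- T (10.28 ± 0.45, SD, n = 5) and XX E (10.82 ± 0.44, n = 5). Under blank capsules the level was 9.94 ± 0.54 (SD, n = 8) without Sry and 8.79 ± 0.50 (n = 9) with it. Under testosterone it was 10.20 ± 0.36 (n = 9) and 8.59 ± 1.16 (n = 10), and under estradiol 10.94 ± 0.58 (n = 10) and 7.71 ± 0.78 (n = 9). Only the estradiol arrays did not overlap between gonad types. The fitted gonad differences were −1.20 ± 0.36 (SE) under blank, −1.60 ± 0.33 under testosterone and −3.22 ± 0.33 under estradiol.

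In adipose Acot1 the estradiol difference depended on the gonad type. Estradiol minus blank was 0.95 ± 0.35 (SE) without Sry and −1.07 ± 0.34 with Sry, and averaged over both it was −0.06 (adjusted p = 0.905). The difference between the 2 was −2.03 ± 0.49 (adjusted p = 0.0218), and −1.50 ± 0.37 (adjusted p = 0.0254) for the second probe. It was the 1 member of 6 called there, where 0.813% of all tested probes were. The call was lost with median centring (−1.97, adjusted p = 0.0957), without XY-Sry B replicate 2 (−1.86, adjusted p = 0.0538) and without XX B replicate 2 (−1.85, adjusted p = 0.0872). It was kept without the 4 arrays that stood apart (adjusted p = 0.0416).

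**Figure D3:**
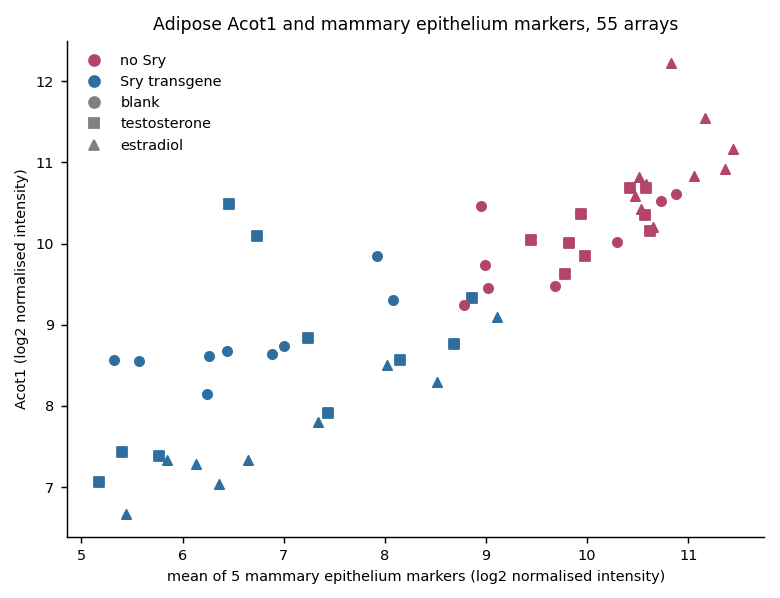
Acot1 in each of the 55 inguinal adipose arrays (log2 normalised signal, vertical axis) against the mean log2 level of 5 mammary epithelium markers (horizontal axis), by gonad type and capsule. Arrays without Sry lay at 8.78 or above on the marker axis and arrays with Sry at 9.11 or below.

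Markers of mammary epithelium, which lies within the inguinal fat pad, were also lower with Sry. Krt8, Krt18, Krt5, Krt14 and Csn3 were on the array, 5 of the 6 listed. Their mean had a lowest, median and highest value of 8.78, 10.51 and 11.44 without Sry (n = 27) and 5.17, 6.69 and 9.11 with Sry (n = 28). In mice without Sry 4 of the 5 were detected on every array, and in mice with Sry 0 of the 5 were. By capsule the marker mean was 9.67 ± 0.86 under blank, 10.13 ± 0.43 under testosterone and 10.86 ± 0.37 under estradiol without Sry (SD, n = 8, 9 and 10). With Sry it was 6.63 ± 0.94, 6.99 ± 1.32 and 7.05 ± 1.27 (n = 9, 10 and 9). Without Sry, Acot1 and the marker mean were both highest under estradiol. With Sry, Acot1 was lowest under estradiol and the marker mean was not. With this mean as a covariate the gonad difference of Acot1 was −0.03 (adjusted p = 0.983). As the marker mean nearly separates the gonad types, this fit cannot tell the markers and the gonad type apart. The estradiol difference between gonad types with the same covariate was −1.66 (adjusted p = 0.00436). That fit takes the same slope for both gonad types over marker ranges that nearly separate. It therefore cannot tell tissue make-up and an estradiol effect apart either.

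Acot3 was detected on 5 of 55 adipose arrays, 3 blank, 2 testosterone and 0 estradiol. Its levels were 5.43 ± 0.66 under blank (SD, n = 17), 5.39 ± 1.49 under testosterone (n = 19) and 4.94 ± 0.32 under estradiol (n = 19), with medians of 5.29, 4.86 and 4.89. Testosterone minus blank was 0.02 ± 0.32 (SE, adjusted p = 0.985), and estradiol minus blank −0.45 ± 0.32 (adjusted p = 0.347). The estradiol difference passed, at −0.58 (adjusted p = 0.0239), when the 4 arrays that stood apart were left out. The highest array, XY-Sry T replicate 1 at 10.98, had a mean of the 7 hepatocyte markers of 11.52, where the median of all adipose arrays was 5.47. The next testosterone array, XX T replicate 4 at 7.44, had a hepatocyte mean of 8.57. The highest blank array, XXSry B replicate 1 at 7.36, had one of 8.73. With the muscle, lymph node and hepatocyte means as covariates the testosterone difference was −0.19 (adjusted p = 0.612) and the estradiol difference −0.38 (adjusted p = 0.142).

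Acot2 in adipose tissue followed the slide. Its most often detected probe, detected on 27 of 55 arrays, lay between 4.57 and 5.15 on all 24 arrays of 3 slides (4.77 ± 0.19, SD). On the 31 arrays of the other 5 slides it lay between 5.58 and 7.71 (6.63 ± 0.53), with no overlap. Of the 14636 tested probes, 25 (0.171%) did not overlap between these slides. All 3 capsules were on both sets of slides. For estradiol the difference was −0.17 (adjusted p = 0.81), and with slide as a block −0.33 (adjusted p = 0.196). A second probe, detected on 19 arrays, gave −0.32 ± 0.12 (SE, adjusted p = 0.0593). The levels of the other 5 tested members overlapped between the slides, and the Acot1 gonad difference was −1.94 on the first 3 slides and −2.09 on the others.

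Ehhadh was detected on 31 of 55 adipose arrays. Its lowest, median and highest levels were 5.09, 6.48 and 7.32 under blank (6.28 ± 0.62, SD, n = 17) and 4.87, 5.60 and 7.46 under estradiol (5.78 ± 0.62, n = 19), which overlap. The estradiol difference was −0.47 ± 0.20 (SE, adjusted p = 0.0836), and −0.65 with slide as a block (adjusted p = 0.0319). The estradiol difference also passed without XY-Sry E replicate 5 (−0.53, adjusted p = 0.0469), XXSry E replicate 2 (−0.55, adjusted p = 0.0383), XY- B replicate 2 (−0.53, adjusted p = 0.0491) or XX B replicate 3 (−0.57, adjusted p = 0.0386). The gonad difference was 0.41 ± 0.16 (adjusted p = 0.116), and passed without XX B replicate 1 (0.50, adjusted p = 0.0348).

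Cpt2, which was detected on every adipose array, was lowered by estradiol and less firmly by testosterone. Its lowest, median and highest levels were 11.55, 12.33 and 12.96 under blank (12.37 ± 0.32, SD, n = 17). They were 11.59, 12.04 and 12.44 under testosterone (12.02 ± 0.29, n = 19) and 10.89, 11.84 and 12.35 under estradiol (11.78 ± 0.33, n = 19). The ranges overlapped, with the estradiol median below the testosterone median and that below the blank one. Estradiol minus blank was −0.58 ± 0.10 (SE, adjusted p = 1.9e-05). It was −0.82 in XX, −0.30 in XY-, −0.55 in XXSry and −0.65 in XY-Sry mice, and −0.56 and −0.39 within the 2 slides that held both capsules. Testosterone minus blank was −0.37 ± 0.10 (adjusted p = 0.0213). It was not called with median centring (−0.40, adjusted p = 0.0961), with slide as a block (−0.32, adjusted p = 0.141), without the 4 arrays that stood apart (−0.33, adjusted p = 0.0678), and without XX B replicate 1 (−0.34, adjusted p = 0.0561).

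The brown adipocyte markers moved with Cpt2. The mean of the 5 markers had medians of 9.82 under blank (8.58 to 12.11), 9.09 under testosterone (7.63 to 11.75) and 8.34 under estradiol (7.50 to 9.32). Cidea, Cox8b and Cox7a1 were detected on all 55 arrays, Ucp1 on 20 and Elovl3 on 1. Cox7a1 is a muscle as well as a brown fat gene, so the mean may also read muscle, which was not tested. The mean of the 7 skeletal muscle markers had medians of 12.56 under blank, 12.80 under testosterone and 10.21 under estradiol. With the brown adipocyte mean as a covariate the estradiol difference of Cpt2 was −0.33 (adjusted p = 0.0358). As this mean was itself lower under estradiol, the fit cannot tell tissue make-up and an estradiol effect apart. The gonad difference of Cpt2 was 0.25 ± 0.08 (SE) and just missed the threshold (adjusted p = 0.0531), with levels of 12.18 ± 0.37 with Sry (SD, n = 28) and 11.91 ± 0.37 without (n = 27). It passed on leaving out any of 16 of the 55 arrays, within 0.22 to 0.27 over all. These were XX B replicate 1, XX T replicate 2, XX E replicates 2 and 5, XY- B replicates 2, 4 and 5, XY- T replicates 1 and 2, XXSry B replicates 1 and 5, XXSry T replicate 3, XXSry E replicate 4, XY-Sry T replicate 5 and XY-Sry E replicates 1 and 4.

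Pdk4 was detected on all 55 adipose arrays and did not pass a test there. Its lowest, median and highest levels were 10.09, 11.05 and 12.34 under blank (11.13 ± 0.61, SD, n = 17). They were 8.94, 10.97 and 13.04 under testosterone (10.95 ± 1.26, n = 19) and 9.87, 11.07 and 11.99 under estradiol (11.01 ± 0.53, n = 19). The testosterone arrays held both the lowest and the highest level. Estradiol minus blank was −0.09 ± 0.30 (SE, adjusted p = 0.882), testosterone minus blank was −0.14, and the gonad difference was −0.27 ± 0.24 (adjusted p = 0.639). With the brown adipocyte mean as a covariate the estradiol difference was 1.06 (adjusted p = 0.0032), of opposite sign. That mean was itself lower under estradiol, so this fit cannot tell tissue make-up and an estradiol effect apart.

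In counts, testosterone changed 1 of the 6 genes tested in adipose tissue (Cpt2, lower), where 4.75% of all tested probes were called. Estradiol changed 1 of 6 (Cpt2, lower), where 20.5% were called, again a share close to that of the members, and the gonad changed 1 of 6 (Acot1, lower with Sry), where 7.34% were called. The median difference of the 6 genes was −0.01 for testosterone, −0.31 for estradiol and 0.21 for the gonad, beside −0.02, −0.02 and 0.03 over all tested probes. The testosterone count was 0 without XX B replicate 1 and without the 4 arrays that stood apart, and the gonad count was 0 with the mammary marker mean as a covariate.

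**Figure D4:**
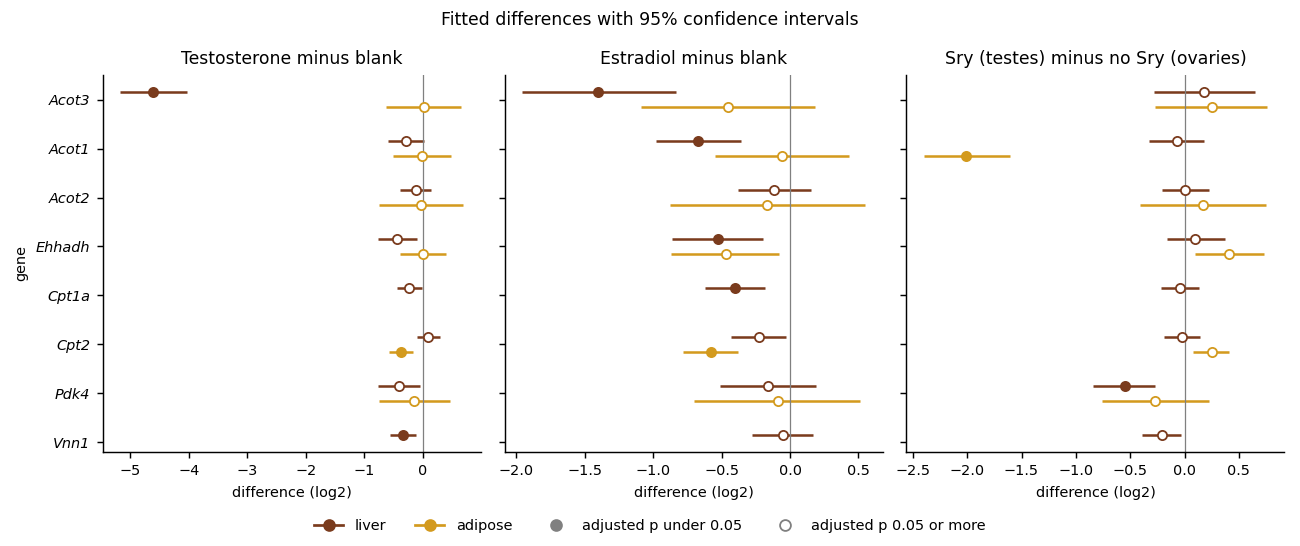
Fitted differences of each gene (log2, with 95% intervals) for testosterone minus blank, estradiol minus blank and Sry minus no Sry, in liver and in inguinal adipose tissue. Filled points have an adjusted p under 0.05. Acot3 stands out for testosterone in liver at −4.61 and Acot1 for the gonad in adipose tissue at −2.01.

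For a test of liver against fat, all 115 arrays were normalised together, which changed the size of the differences (liver Acot3 under testosterone −4.00 in place of −4.61), and the liver difference minus the adipose difference was tested over 10761 probes. The testosterone test was passed by 2 of 6 genes, where 6.82% of all probes passed. For Acot3 it was −4.00 in liver and 0.08 in fat, a difference of −4.08 ± 0.39 (SE, adjusted p = 2.88e-14, 95% interval −4.86 to −3.29), and −3.69 with the 6 arrays that stood apart left out. As Acot3 was near background in fat, a drop there could not have been measured, so this test does not show that the response differed between the tissues. For Cpt2 it was 0.09 and −0.42, a difference of 0.51 ± 0.14 (adjusted p = 0.0124, 95% interval 0.23 to 0.78), which was 0.43 and not called with median centring (adjusted p = 0.214).

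The estradiol effect differed between tissues for 1 of 6 genes, where 10.2% of all probes did. For Cpt2 it was −0.20 in liver and −0.66 in fat, a difference of 0.46 ± 0.14 (SE, adjusted p = 0.0188). This call was lost with median centring (0.21, adjusted p = 0.51), with slide as a block (0.33, adjusted p = 0.173), with each tissue normalised apart (0.35, adjusted p = 0.105) and with the 6 arrays left out (0.41, adjusted p = 0.0579). The estradiol effects on Acot3 (−1.18 in liver, −0.35 in fat) and on Acot1 (−0.57 and −0.02) differed by −0.83 ± 0.39 (adjusted p = 0.193) and −0.55 ± 0.28 (adjusted p = 0.231). The gonad effect differed for 1 of 6 genes, where 4.17% of all probes did. That was Acot1, at −0.06 in liver and −2.09 in fat, a difference of 2.03 ± 0.23 (adjusted p = 1.1e-11, 95% interval 1.58 to 2.48). As the mammary epithelium markers in fat nearly separate the gonad types, tissue make-up and a gonad effect cannot be told apart there. For Pdk4 the gonad effects of −0.63 in liver and −0.31 in fat differed by −0.33 ± 0.32 (adjusted p = 0.722), so the liver call is not shown to be peculiar to liver.

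The remaining tests gave few calls on any gene. Testosterone by gonad called 0 of 8 members in liver, where 0.124% of all probes were called, with Pdk4 the 1 gene at an unadjusted p under 0.05 in limma. Estradiol by gonad also called 0 of 8 there (0.0795% of all probes), with Acot1 the 1 gene at an unadjusted p under 0.05. The sex chromosome complement called 0 of 8 in liver (0.186%), with Pdk4 the 1 gene at an unadjusted p under 0.05. In adipose tissue testosterone by gonad called 0 of 6 (0.0137%) and the sex chromosome complement 0 of 6 (0.137%), each with 0 genes at an unadjusted p under 0.05.

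Among all other probes, those most like each gene over the arrays were named by Pearson correlation, as a description that includes the groups and shared slides. Liver Acot3 was closest to its neighbour Acot4 (0.95, 60 arrays), EG243881 (0.93) and Cyp2b9 (0.91), a cytochrome P450. The probes of Acot3 and Acot4 may also read each other, which was not tested. Liver Ehhadh was closest to Ccl27 and the glucose transporter Slc2a2 (both 0.75). Liver Cpt2 was closest to Arl6ip1 (0.74) and then Acot8 (0.73), another peroxisomal thioesterase. Adipose Acot1 was closest to Tmprss13 (0.90, 55 arrays), and Krt1-18, an epithelial keratin and 1 of the mammary markers, was also among the probes most like it (0.86). Adipose Acot3 was closest to the liver enzymes Agxt and Adh4 (both 0.91), Cpt2 to the acyl-CoA dehydrogenase Acadl (0.89) and Pdk4 to Cox7a1 (0.83), a muscle and brown fat subunit of cytochrome oxidase.

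Within groups, after taking out the group means, pairs of members were compared by Pearson's r and the rank correlation rho. A pair that did not pass is not shown to vary apart. In 16 pairs tested (10 in liver, 6 in fat; two-sided, 100000 permutations), 0 pairs passed after Benjamini-Hochberg adjustment on both coefficients. The closest in liver was Acot3 with Acot1, with r = 0.39 (permutation p = 0.0141, adjusted 0.0686) and rho = 0.45 (permutation p = 0.00099, adjusted 0.0158) over 60 arrays. Without the 2 arrays farthest from the median r was 0.50, and within slides 0.45. Liver Acot1 with Ehhadh had r = 0.22 (permutation p = 0.13), and 0.56 within slides. In fat Cpt2 with Pdk4 had r = 0.41 (permutation p = 0.00884, adjusted 0.0686) and rho = 0.35 (permutation p = 0.0265, adjusted 0.106) over 55 arrays, r = 0.38 without the 2 farthest arrays and 0.30 within slides. Acot1 with Ehhadh in fat had r = 0.41 (permutation p = 0.0171, adjusted 0.0686) and rho = 0.37 (permutation p = 0.0192, adjusted 0.106). Ehhadh with Cpt2 in fat had r = 0.36 (permutation p = 0.0121, adjusted 0.0686), and 0.54 within slides.

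**Figure D5:**
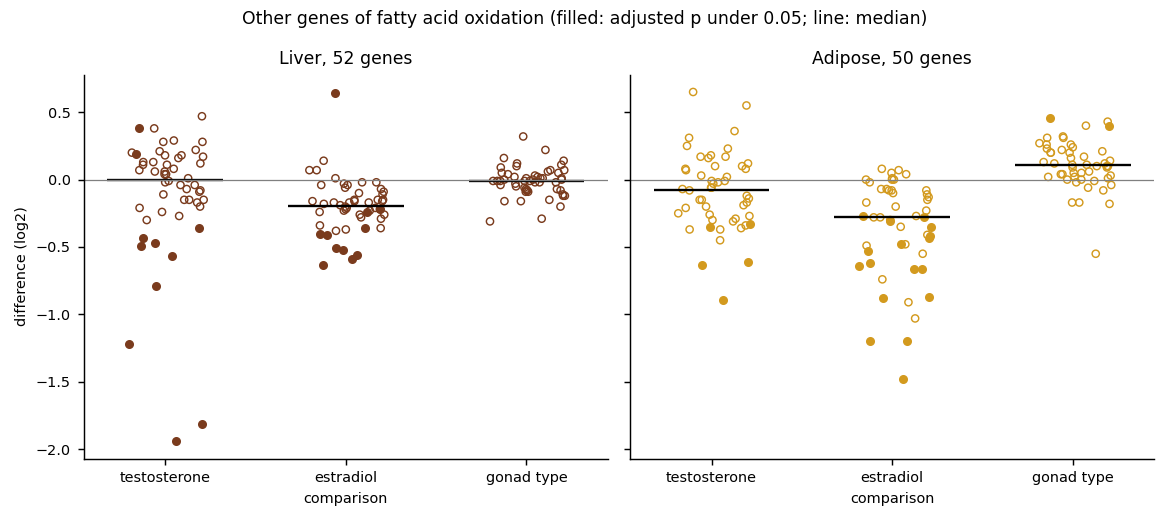
Fitted differences (log2, vertical axis) of the other pathway genes, 52 in liver and 50 in adipose tissue. They include regulators and other targets besides genes of fatty acid oxidation. Shown are testosterone minus blank, estradiol minus blank and Sry minus no Sry. Filled points have an adjusted p under 0.05 and the line is the median, which was −0.19 for estradiol in liver and −0.28 for estradiol in adipose tissue.

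A list of 62 other genes, called pathway genes here, held oxidation, uptake and ketogenesis genes. It also held 16 regulators and other targets, not all of which act in fatty acid oxidation. Of the 62, 57 were on the array. Testosterone changed 11 of the 52 tested in liver (21.2%, against 19.1% of all probes), 2 up and 9 down. The largest falls were those of Acot4 (9.57 ± 0.27 to 7.64 ± 0.35, SD, n = 20 each; −1.94 ± 0.13, SE, adjusted p = 1.42e-18), of the peroxisomal fatty acid transporter Abcd2 (−1.81 ± 0.18, adjusted p = 4.91e-12) and of Vnn3, a relative of Vnn1 (−1.22 ± 0.16, adjusted p = 1.58e-08). Creb3l3, a liver transcription factor of lipid metabolism, rose by 0.38 ± 0.12 (adjusted p = 0.0161), and the peroxisomal enzyme Hsd17b4 rose by 0.19 ± 0.06 (adjusted p = 0.0153). With median centring 0 of the called genes were higher and 9 lower, so these rises were not called there. By class, 3 of 12 peroxisomal genes, 1 of 13 mitochondrial beta-oxidation genes and 5 of 13 regulators and other targets were called.

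Estradiol changed 11 of the same 52 liver genes (21.2%, against 6.82% of all probes), 1 up and 10 down, with a median of −0.19 against −0.02 over all probes. Ppara itself, the receptor, fell from 7.27 ± 0.49 to 6.64 ± 0.61 (SD, n = 20 each; −0.63 ± 0.15, SE, adjusted p = 0.00394), and under testosterone to 6.84 ± 0.38 (−0.43 ± 0.15, adjusted p = 0.0325). Cyp4a14, which carries out omega-oxidation, fell by 0.59 on the log2 scale (SE 0.16, adjusted p = 0.014), and Acot4 by 0.56 (SE 0.13, adjusted p = 0.00271). Lpin1, a phosphatidate phosphatase and coactivator, rose by 0.64 ± 0.21 (adjusted p = 0.045). The calls were 6 of 13 regulators and other targets and 2 of 2 omega-oxidation genes, with 0 of 13 mitochondrial genes called and 3 of them at an unadjusted p under 0.05 in limma. With median centring the median of all probes for estradiol was −0.18, and the pathway calls were 0 higher and 21 lower. The count ran from 5 to 12 when single arrays were left out. It moved by over 1.5 times on leaving out XX B replicate 1, XX E replicate 1, XY- B replicate 2 or 3, XY- E replicate 2, XXSry B replicate 5, XXSry E replicate 1 or XY-Sry E replicate 3. The gonad changed 0 of 52, with 6 at an unadjusted p under 0.05 in limma, and for Ppara the gonad difference was 0.16 ± 0.12 (adjusted p = 0.716).

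In adipose tissue estradiol changed 17 of 50 pathway genes (34.0%, against 20.5% of all probes), all downward, with a median of −0.28 against −0.02. Acot4 fell from 7.22 ± 0.50 (SD, n = 17) to 5.69 ± 0.53 (n = 19; −1.48 ± 0.21, SE, adjusted p = 6.31e-07). The coactivator Ppargc1a and the uncoupling protein Ucp3 each fell by 1.20 on the log2 scale (SE 0.23, adjusted p = 0.000111, and SE 0.26, adjusted p = 0.000454). By class, 5 of 13 mitochondrial beta-oxidation genes, 3 of 9 carnitine and uptake genes, 3 of 10 peroxisomal genes and 6 of 12 regulators were called. Testosterone changed 5 of 50 (against 4.75% of all probes), all downward, with Acot4 at −0.89 ± 0.21 (adjusted p = 0.00763), Vnn3 at −0.63 ± 0.13 (adjusted p = 0.00245) and Pdk1 at −0.61 ± 0.14 (adjusted p = 0.00632). This count was 2 with median centring or slide as a block, 9 with array weights and 14 with the muscle, lymph node and hepatocyte means as covariates. The gonad changed 2 of 50 (4.00%, against 7.34%), both higher with Sry: Rxra, the partner of PPAR-alpha (0.46 ± 0.12, adjusted p = 0.0073), and Abcd2 (0.40 ± 0.12, adjusted p = 0.0284). Ppara was detected on 1 adipose array and was not tested. With the brown adipocyte mean as a covariate the estradiol count was 4 of 50. That mean was itself lower under estradiol, so the count cannot tell tissue make-up and an estradiol effect apart. The mean of the 7 skeletal muscle markers also differed, with medians of 12.56 under blank (8.23 to 13.85) and 10.21 under estradiol (6.15 to 13.75), and with the muscle, lymph node and hepatocyte means as covariates the count was 23. The mean of the 5 macrophage markers was 6.53 ± 0.37 under blank (SD, n = 17; 5.94 to 7.19) and 7.13 ± 0.35 under estradiol (n = 19; 6.50 to 7.61), and its part was not tested.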

How the data were processed

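RNA of 60 liver and 55 inguinal adipose samples was measured on Illumina expression arrays. Per the file headers, the deposited tables hold each probe's mean bead signal, an intensity on a linear scale, with a detection p-value per array; 60 and 55 columns of bead errors were not used. No normalisation was seen in the deposited intensity values, whose lowest were 89.1 and 92.6. The tool lumi is named, without version, in the submitters' processing notes.

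Within each tissue, signals were background-corrected by normexp from the detection p-values, offset by 16, quantile-normalised and put on the log2 scale (limma 3.58.1, R 4.3.3). The deposited table has no log2 values. Probes detected at p under 0.01 on at least 5 liver or 3 adipose arrays were tested (11317 and 14636 of 25697). Means of the 12 groups were fitted with lmFit and eBayes, and 6 contrasts were taken per tissue. The probe of a gene detected on most arrays stands for it, ties by higher mean. Named genes were every member, the 3 called pathway genes with the largest rise and the 3 with the largest fall per contrast, Ppara, and the 3 probes most like each member, of which some are not reported here. The members and lists were chosen with earlier results of these data known. The script was tested on simulated data. Figures used matplotlib 3.10.9 on Python 3.11.15. Alternatives were median centring, no background correction, an offset of 50, other filters, slide as a block, array weights, marker means as covariates, arrays left out, the array with disagreeing labels taken as testosterone, and, for the tissue differences, separate normalisation and separate spreads. The number of arrays limits the precision.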

Additional observations from a re-analysis of the deposited data

Results flagged for a closer look

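In 162 sets of 1 gene and 1 group of 4 or 5 arrays, 14 arrays lay far from the rest of their group (8 of 96 sets in liver, 6 of 66 in adipose tissue). For independent sets of normally distributed values, chance gives about 1 in 20 sets. The sets here share arrays, and probes near background or split by slide need not be normal, so that rate is only a rough guide. XX E replicate 1 of liver did so in 3 genes: Ehhadh at 5.04 (others 7.29 to 7.77), Acot2 at 6.16 (4.77 to 5.08) and Vnn1 at 6.66 (4.69 to 5.09). The other liver arrays were XY-Sry T replicate 3 for Acot1 at 9.83 (11.15 to 11.56), XY- E replicate 1 for Cpt1a at 4.77 (5.16 to 5.31), and XXSry E replicate 3 for Cpt2 at 11.86 (11.22 to 11.36). XXSry E replicate 4 stood at 5.80 for Pdk4 (5.24 to 5.32) and XXSry B replicate 2 at 5.68 for Vnn1 (4.71 to 4.98).

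In adipose tissue, Acot3 stood at 10.98 in XY-Sry T replicate 1 (others 4.79 to 5.76) and at 7.44 in XX T replicate 4 (4.79 to 5.16), the arrays with hepatocyte marker means of 11.52 and 8.57. Acot1 stood at 9.31 in XXSry B replicate 4 (8.56 to 8.68), and Ehhadh at 6.57 in XY-Sry E replicate 5 (5.31 to 5.54). Acot2 stood at 5.11 in XXSry B replicate 5 (6.51 to 6.81) and at 6.88 in XY-Sry B replicate 1 (4.92 to 5.08), the gene whose level followed the slide.

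By a test of the difference itself, the effect of estradiol on adipose Acot1 differed between mice with and without Sry (−2.03). Fitted effects differed between liver and fat for testosterone on Cpt2 (0.51) and for the gonad on Acot1 (2.03). For testosterone on Cpt2 the difference was not called with median centring. In fat the mammary epithelium markers nearly separate the gonad types. For Acot1, tissue make-up and a gonad effect can therefore not be told apart there. For estradiol on Cpt2 the difference (0.46) was not called with median centring, slide as a block, each tissue normalised apart or the 6 arrays that stood apart left out. For testosterone on Acot3 (−4.08) the adipose probe was near background, detected on 5 of 55 arrays, so a drop in fat could not have been measured and the value does not show that the tissues responded differently.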

How the results depend on the processing

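Of the members' differences under another setting (leave-outs apart), 537 kept their direction and side of the threshold, 15 lost a call and 29 gained one. In 41 the sign changed with no call in either fit, and 1 reversed, a change of sign with a call. The reversal was adipose Pdk4 under estradiol, 1.06 with the brown adipocyte mean as a covariate; its cause was not tested, nor were those of the counts below. Median centring gave 1 member called for liver testosterone, 21 pathway genes for liver estradiol, 0 members and 2 pathway genes for adipose testosterone, 1 pathway gene for the adipose gonad, 0 members for adipose estradiol by gonad, and 1 and 0 members for the tissue differences in testosterone and estradiol. Slide as a block gave 2 pathway genes for the liver gonad, 1 member for liver estradiol by gonad, 0 members and 2 pathway genes for adipose testosterone, 2 members each for adipose estradiol and gonad, and 0 and 2 members for the tissue differences in estradiol and gonad. Array weights gave 4 members for liver testosterone, 2 pathway genes for the liver gonad, 1 member for liver estradiol by gonad, 9 pathway genes for adipose testosterone, 2 members and 26 pathway genes for adipose estradiol and 3 members for the adipose gonad. No background correction gave 4 members for liver testosterone, 2 for the adipose gonad and 3 for the tissue difference in estradiol. An offset of 50 gave 2 members for the adipose gonad and 2 for the tissue difference in estradiol. Without the filter 6 pathway genes were called for liver estradiol and 2 members for the tissue difference in estradiol. With probes detected on at least 50% of the arrays 4 members were tested and 1 was called for the tissue difference in testosterone. Without the 2 liver arrays that stood apart 1 member was called for liver estradiol by gonad. Without the 4 adipose arrays, left out after seeing the data, 0 members were called for testosterone and 2 for estradiol, and without all 6, also chosen after seeing the data, 0 for the tissue difference in estradiol. That count was also 0 with each tissue normalised apart. With the array of disagreeing labels taken as testosterone 2 members were called for the adipose gonad. Muscle, lymph node and hepatocyte means as covariates gave 14 pathway genes for adipose testosterone and 2 members and 5 pathway genes for the gonad. The brown adipocyte mean gave 2 members and 4 pathway genes for adipose estradiol, and 2 and 4 for the gonad. The mammary mean gave 2 members for adipose estradiol, and 0 members and 0 pathway genes for the gonad.

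Leaving out each array in turn gave, for members called, 1 to 4 for liver testosterone, 3 to 4 for liver estradiol, 0 to 1 for liver estradiol by gonad, 0 to 1 for adipose testosterone, 1 to 2 for adipose estradiol, 1 to 3 for the adipose gonad and 0 to 1 for adipose estradiol by gonad. For pathway genes it gave 10 to 13 for liver testosterone, 5 to 12 for liver estradiol, 0 to 1 for the liver gonad, 4 to 6 for adipose testosterone, 16 to 22 for adipose estradiol and 1 to 3 for the adipose gonad, where XX T replicate 1 changed it. No paired analysis was possible because the labels give the arrays no replicate numbers. Signals near background limit what can be said of Cpt1a, Vnn1 and Acot2 in liver and of Acot3 in fat. They also limit Pdk4 in liver (detected on 40 of 60 arrays) and Ehhadh and Acot2 in fat (31 and 27 of 55).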
